A study of Mus musculus with 6 samples.

Results

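Transcript levels of 9 genes that encode the laminin chains, nidogens and perlecan of the muscle basement membrane were examined in the soleus of mice. The genes were Lama2, Lama4, Lama5, Lamb1, Lamb2, Lamc1, Nid1, Nid2 and Hspg2, out of 30142 genes with a feature of their own on the array. A gene was read from the feature annotated with its symbol alone, and each of the 9 had 1 such feature. The tested animals were 3 cKO mice, in which the protease gene Mbtps1 was knocked out with a DMP1 Cre, and they were compared with 3 Control mice, littermates labelled wild type. The labels did not say whether the Control mice carried a floxed Mbtps1 allele or the Cre. All 6 mice were male, were 39 to 41 weeks old and gave 1 array each, made from total RNA of whole muscle. Dmp1 is known as a gene of osteocytes, the cells embedded in bone, and whether its Cre was active in muscle was not stated in the labels. Values are log2 signals as deposited, so that 1 unit is a factor of 2, and every difference is cKO minus Control.

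A basement membrane is a thin sheet of matrix that wraps each muscle fibre, capillary and nerve. Its laminins are trimers of an alpha, a beta and a gamma chain that polymerise at the cell surface, where they hold on to dystroglycan and integrins. Nidogens bind the laminin gamma chain and link the laminin sheet to the collagen IV network, and perlecan, a heparan sulfate proteoglycan, is anchored in the same sheet. In muscle this layer carries force out of the fibre and organises the nerve-muscle synapse, and loss of the alpha chain encoded by Lama2 causes a congenital muscular dystrophy.

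The arrays held RNA of skeletal muscle by its markers, since all 12 muscle fibre genes examined were measured and their mean lay between 17.5 and 17.6 on every array. The 2 groups of mouse numbers in the labels cut across the genotypes. Mice 715 and 716 (Control 1 and 2) and mouse 733 (cKO 1) had low numbers, and mouse 776 (Control 3) and mice 779 and 780 (cKO 2 and 3) had high ones. What the numbers mark was not stated, so differences are also given within each range, where 1 array of one genotype faced 2 of the other. The array of cKO 1 stood apart, with an array median of 4.37 against at most 4.13 on the others and the lowest weight in limma (0.254). Differences over all 33334 features tested had a median of 0.07, which was -0.0038 after quantile normalization. Mbtps1 itself was at 7.77, 7.44 and 7.11 in cKO 1 to 3, against 7.39, 7.05 and 7.24 in Control 1 to 3, and where its feature lies relative to the deletion is not known here, so this level does not check the labels.

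Of the 9 basement membrane genes, 8 had a positive difference and 1, Lamb1, a negative one. None of the 9 passed the test over all features. The differences ran from -0.15 for Lamb1 to 0.74 for Lamc1, with a median of 0.24, and 65.8% of all features tested had a positive difference. After quantile normalization the same count was 8 of 9, against 49.2% of all features, and the median of the 9 was 0.18. The limma adjusted p was 0.999 for every member, and 0 of 9 passed 0.05, as did 0% of the 33334 features. At an unadjusted limma p under 0.05 there was 1 member, Lamc1, or 1 of 9, against 4.5% of all features, and 0 of 9 members joined an unadjusted p under 0.01 with a fold of at least 1.5, against 0.669%. In 0 of 9 members did the 3 cKO arrays lie wholly above or below the 3 Control arrays, which 11% of all features did, 8.95% with cKO higher and 2.05% with cKO lower. Because whole muscle was profiled, fewer cells of a type and less RNA per cell cannot be told apart for any gene here.

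**Figure D1:**
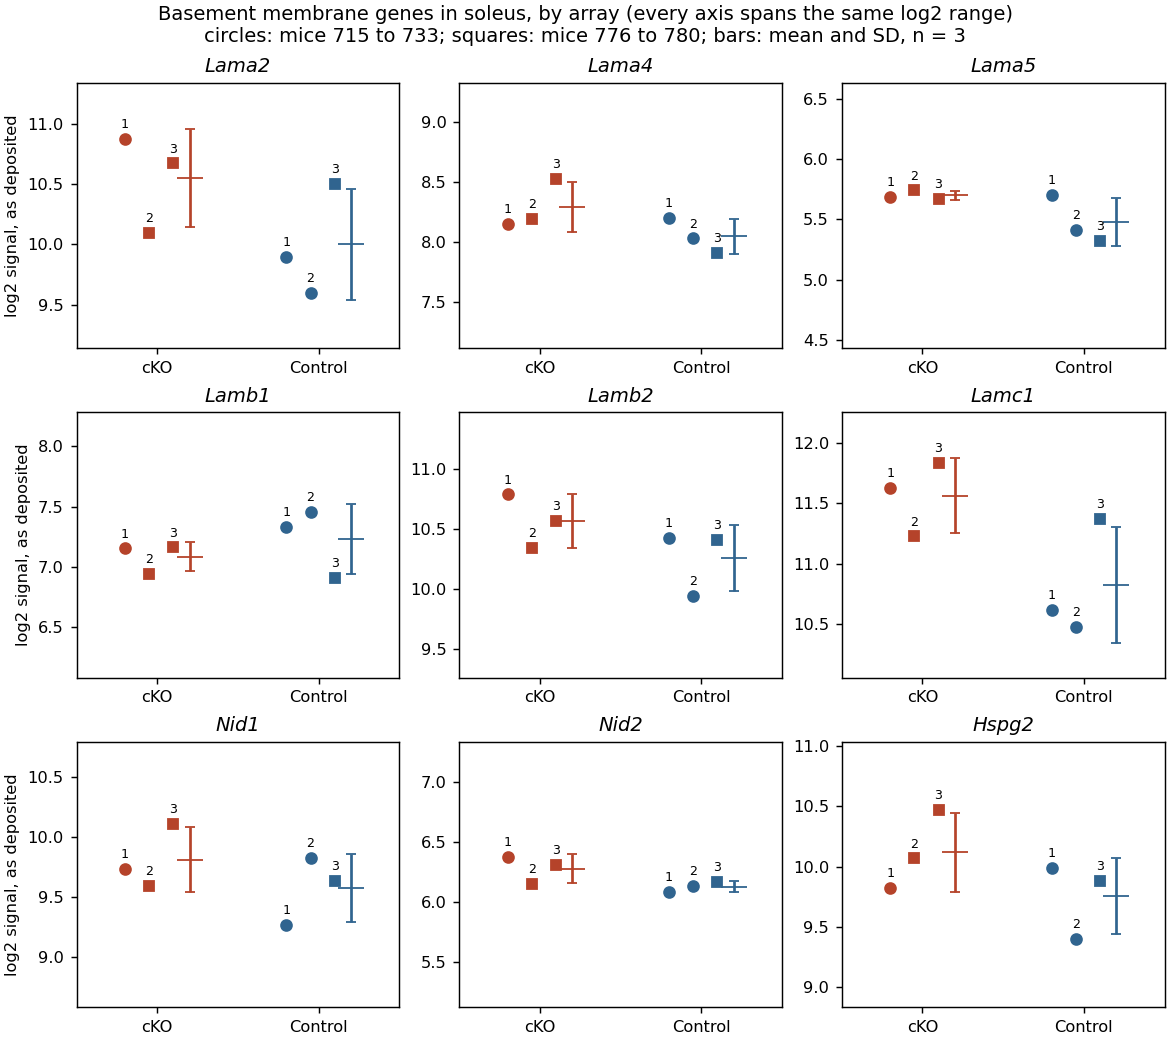
Log2 signal of each basement membrane gene on each array, with the cKO arrays left of the Control arrays. Small digits give the replicate, circles the low and squares the high mouse numbers, and bars the mean and SD of 3 arrays. In all 9 panels the groups overlap, and in Lama2 and Lamc1 the arrays of Control 1 and 2 lie lowest.

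The alpha chains decide where a laminin sits and which receptor it meets. Lama2, the alpha chain of the main laminin of the adult fibre surface, was at 10.88, 10.09 and 10.67 in cKO 1 to 3, against 9.90, 9.60 and 10.50 in Control 1 to 3. Control 1 and 2 were the lowest arrays, and Control 3 lay above cKO 2. The difference of 0.55 (SE 0.32, 95% interval -0.21 to 1.31, limma adjusted p = 0.999) was 1.13 among the low-numbered and -0.12 among the high-numbered mice. It ran from 0.33 with array weights to 0.80 without Control 3. An exact permutation test of 3 against 3 arrays, two-sided, gave p = 0.2, where the smallest value it can give is 0.1.

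Lama4, an alpha chain of vessel walls and of the synapse, was at 8.15, 8.19 and 8.53 in cKO 1 to 3, against 8.20, 8.03 and 7.91 in Control 1 to 3. The array of cKO 3 was highest, and Control 1 lay above cKO 1 and cKO 2. The difference of 0.24 (SE 0.18, 95% interval -0.20 to 0.68, limma adjusted p = 0.999) was 0.03 among the low-numbered and 0.44 among the high-numbered mice, and 0.11 after quantile normalization. Lama5, another alpha chain of vessel walls and of the synapse, was at 5.69, 5.74 and 5.67 in cKO 1 to 3, against 5.70, 5.41 and 5.32 in Control 1 to 3. The cKO arrays were close together, and Control 1 lay among them. The difference of 0.22 (SE 0.14, 95% interval -0.12 to 0.56, limma adjusted p = 0.999) was 0.13 among the low-numbered and 0.38 among the high-numbered mice, and 0.13 after quantile normalization. The larger within-range value therefore lay in the low numbers for Lama2 and in the high numbers for Lama4 and Lama5.

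The beta chains are shared between sites, with Lamb1 along the fibre and Lamb2 concentrated at the nerve-muscle synapse. Lamb2 was at 10.79, 10.34 and 10.57 in cKO 1 to 3, against 10.42, 9.95 and 10.41 in Control 1 to 3. Control 2 was the lowest array, and the other Control arrays lay just above cKO 2. The difference was 0.31 (SE 0.23, 95% interval -0.23 to 0.84, limma adjusted p = 0.999), with 0.60 among the low-numbered and 0.05 among the high-numbered mice, and without Control 2 it was 0.15. Lamb1, the member with a negative difference, was at 7.15, 6.94 and 7.16 in cKO 1 to 3, against 7.33, 7.46 and 6.91 in Control 1 to 3. Control 1 and 2 were the highest arrays and Control 3 the lowest. The difference of -0.15 (SE 0.19, 95% interval -0.61 to 0.31, limma adjusted p = 0.999) was -0.24 among the low-numbered and 0.15 among the high-numbered mice, so its sign differed between the ranges.

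Promoter sequences of 4 members are shown to set side by side the start regions of genes with unlike values over the arrays. In Lama2 and Lamb2 the same arrays were high (cKO 1 and cKO 3) and low (Control 2), while in Lamb1 Control 2 was highest and in Hspg2, described after Lamc1 and the nidogens, cKO 1 lay below Control 1 and Control 3. The sequences are the 250 bases before the start site in RefSeq on GRCm38.p6, 5′ to 3′ on the gene's own strand, found for 6 of the 9 genes (Lama2, Lama5, Lamb1, Lamb2, Nid1 and Hspg2). Capitals mark 2 motifs searched on both strands, the GC box GGGCGG and the E-box CANNTG. The Lama2 promoter lies at chr10:27616943-27617192 on the minus strand, that of Lamb2 at chr9:108479612-108479861 on the plus strand, that of Lamb1 at chr12:31265043-31265292 on the plus strand and that of Hspg2 at chr4:137468553-137468802 on the plus strand.
Lama2: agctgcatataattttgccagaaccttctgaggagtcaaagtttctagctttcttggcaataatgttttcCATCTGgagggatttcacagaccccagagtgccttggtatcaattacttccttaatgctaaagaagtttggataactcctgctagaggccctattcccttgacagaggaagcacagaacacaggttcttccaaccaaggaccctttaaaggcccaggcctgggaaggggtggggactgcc
Lamb2: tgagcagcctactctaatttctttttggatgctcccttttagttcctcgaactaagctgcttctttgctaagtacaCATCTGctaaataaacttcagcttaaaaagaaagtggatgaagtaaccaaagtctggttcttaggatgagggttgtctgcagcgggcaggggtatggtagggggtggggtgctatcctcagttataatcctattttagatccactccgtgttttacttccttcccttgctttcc
Lamb1: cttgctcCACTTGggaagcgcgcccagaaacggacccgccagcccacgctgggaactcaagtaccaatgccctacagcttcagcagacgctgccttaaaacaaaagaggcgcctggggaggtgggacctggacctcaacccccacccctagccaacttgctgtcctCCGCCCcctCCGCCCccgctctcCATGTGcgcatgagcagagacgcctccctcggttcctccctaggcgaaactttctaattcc
Hspg2: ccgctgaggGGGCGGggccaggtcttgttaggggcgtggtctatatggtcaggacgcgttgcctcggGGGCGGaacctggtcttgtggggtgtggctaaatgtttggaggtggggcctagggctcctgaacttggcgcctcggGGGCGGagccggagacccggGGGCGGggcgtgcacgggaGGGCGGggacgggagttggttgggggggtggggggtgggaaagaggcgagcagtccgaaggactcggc

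The Lama2 and Lamb2 windows held no GC box and 1 E-box each, in both with the letters CATCTG, and their GC content was 47.2% and 43.6%. The Lamb1 window held 2 GC boxes and 2 E-boxes at 62% GC, and the Hspg2 window 5 GC boxes and no E-box at 70% GC. Of the members not printed, Lama5 held 4 GC boxes and 2 E-boxes at 72.4% GC, and Nid1 held 1 GC box and no E-box at 64.4%. Over 32851 promoter windows of the same length, 32.7% held a GC box and 66.2% an E-box, and the median GC content was 52.4%. Searched the same way, the CCAAT box CCAAT occurred once each in Lamb1 and Nid1 (33.8% of all windows), and the TATA box TATAAA (12.4%) and the AP-1 motif TGANTCA (6.75%) in none of the 6. No match of these 5 motifs overlapped another in the 6 windows. These matches describe the letters of the windows and do not show that a factor binds there. By the likeness measure described below, Lama5, with 4 GC boxes, was nearer to Lamb2 (0.22) than Lama2 was (0.25). A link between the windows and the values over the arrays was not tested.

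Lamc1 encodes the gamma chain shared by nearly all laminins of muscle and vessels, and it had the largest difference of the 9 on the values as deposited. It was at 11.63, 11.22 and 11.83 in cKO 1 to 3, against 10.62, 10.47 and 11.37 in Control 1 to 3. The arrays of cKO 1 and cKO 3 lay above all Control arrays, and cKO 2 lay below Control 3. The group means were 11.56 ± 0.31 in cKO and 10.82 ± 0.48 in Control (SD, n = 3 each), a 1.67-fold difference. On the log2 scale that was 0.74 (SE 0.30, 95% interval 0.015 to 1.47, limma adjusted p = 0.999), and the exact permutation test gave p = 0.2. The difference was 1.08 among the low-numbered and 0.16 among the high-numbered mice. It was 0.66 after quantile normalization and ranged from 0.52 to 1.02 over 17 alternatives, with limma adjusted p-values of at least 0.327.

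The nidogens, which bridge laminin and collagen IV, differed by less. Nid1 was at 9.74, 9.59 and 10.11 in cKO 1 to 3, against 9.27, 9.83 and 9.63 in Control 1 to 3. The array of cKO 3 was highest and Control 1 lowest, with the other 4 arrays intermixed. The difference was 0.24 (SE 0.23, 95% interval -0.33 to 0.80, limma adjusted p = 0.999), with 0.19 among the low-numbered and 0.22 among the high-numbered mice, and it was 0.08 without Control 1 and 0.09 without cKO 3. Nid2 was at 6.38, 6.15 and 6.31 in cKO 1 to 3, against 6.08, 6.13 and 6.17 in Control 1 to 3. The arrays of cKO 1 and cKO 3 lay above all Control arrays, and cKO 2 lay below Control 3. The Nid2 difference of 0.15 (SE 0.13, 95% interval -0.16 to 0.46, limma adjusted p = 0.999) was 0.04 after quantile normalization.

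Hspg2, which encodes perlecan, was at 9.82, 10.07 and 10.47 in cKO 1 to 3, against 9.99, 9.40 and 9.88 in Control 1 to 3. Control 2 was the lowest array, and Control 1 and 3 lay above cKO 1. The difference was 0.36 (SE 0.26, 95% interval -0.25 to 0.98, limma adjusted p = 0.999), with 0.13 among the low-numbered and 0.39 among the high-numbered mice. It was 0.51 without cKO 1, and 0.19 both without Control 2 and without cKO 3.

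**Figure D2:**
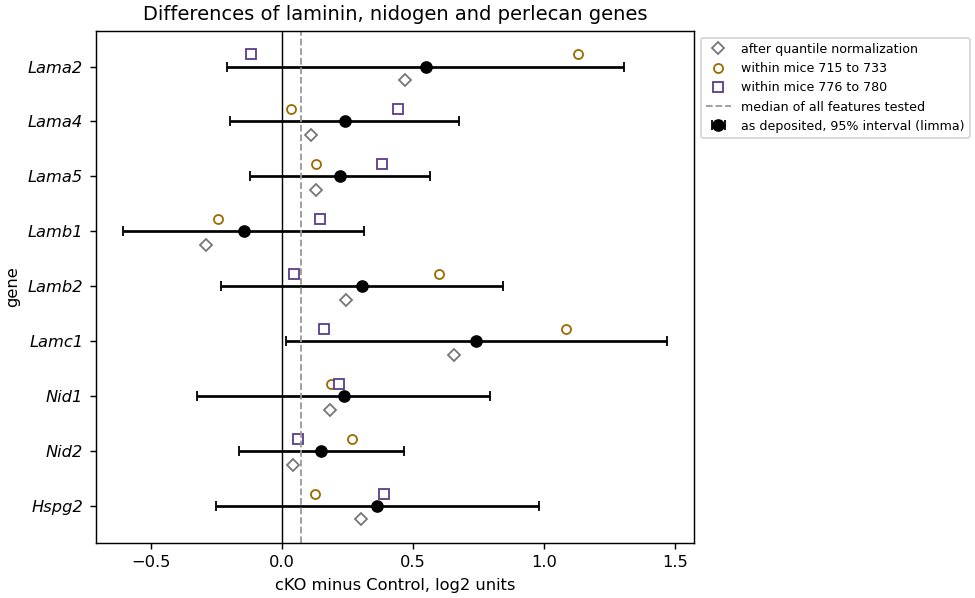
Difference of each gene between cKO and Control in log2 units, with black points and 95% intervals from limma on the deposited values, diamonds after quantile normalization, and open circles and squares within the low and the high mouse numbers. The dashed line is the median of all features tested, at 0.07. The interval of Lamc1 alone starts above 0, at 0.015, and Lama2 and Lamb1 take opposite signs in the 2 number ranges.

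Leaving out 1 array changed which genes separated the groups. Without cKO 2, 4 members (Lama2, Lamb2, Lamc1 and Nid2) had groups that did not overlap, against 18.1% of all features in the same 5 arrays. Without Control 3 the 4 were Lama2, Lamb1, Lamc1 and Nid2, against 26.7%, with Lamb1 on the lower side in cKO. Lama4 and Lama5 separated without Control 1 (17.8% of all features) and Hspg2 without cKO 1 (25.4%), and 0 members did so without cKO 3 (17.4%) or without Control 2 (19.9%). At an unadjusted limma p under 0.05 there were 2 members without Control 3, Lama2 and Lamc1, against 9.43% of all features. Lamc1 was the only one past an unadjusted p without cKO 2 (3.12%), and 0 members were past it without cKO 1 (6.18%), cKO 3 (2.89%), Control 1 (3.07%) or Control 2 (4.22%). Without Control 3, Lamc1 also joined an unadjusted p under 0.01 with a fold of at least 1.5, against 2.88% of all features.

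The 9 genes did not share 1 profile over the arrays. Likeness was measured as the root mean square difference between 2 genes over the 6 arrays after each gene's own mean was subtracted, and it describes these arrays without a test. Lama2 and Lamc1, the alpha and gamma chains of the fibre laminin, differed by 0.17 log2 units by this measure. Among 18333 other genes tested, Lamc1 was the 17th closest to Lama2 and Lama2 the 26th closest to Lamc1. Lamb2 was the 206th closest to Lama2, at 0.25, but Lama2 only the 6724th closest to Lamb2. Lama4 was the 245th closest to Hspg2, at 0.21, but Hspg2 only the 3180th closest to Lama4. Every other rank of a member in another member's list was lower than 245th. By the size of the difference, Lama4 and Lama5 were the closest members, at 0.138. There Lama5 was the 426th closest to Lama4, and Lama4 the 1111th closest to Lama5. Lama5 and Nid2 differed by 0.167, against 0.172 for Lama2 and Lamc1. Nid2 (0.19) and Lama5 (0.22) were closer to Lamb2 than Lama2 was. Lamb1, the beta chain along the fibre, was only the 15317th closest to Lama2, at 0.58, and the 15361st closest to Lamc1, at 0.64. In Lama2, Lamb2 and Lamc1 the arrays of cKO 1 and cKO 3 were highest and Control 2 lowest, whereas in Lama4 and Hspg2 cKO 1 lay below Control 1. The array of cKO 3 was highest in Lamc1, Lama4 and Hspg2 alike, and Control 2 was lowest in Hspg2 too. All 9 genes were above their own mean on the array of cKO 3, and 2 were on the arrays of Control 2 and of Control 3.

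**Figure D3:**
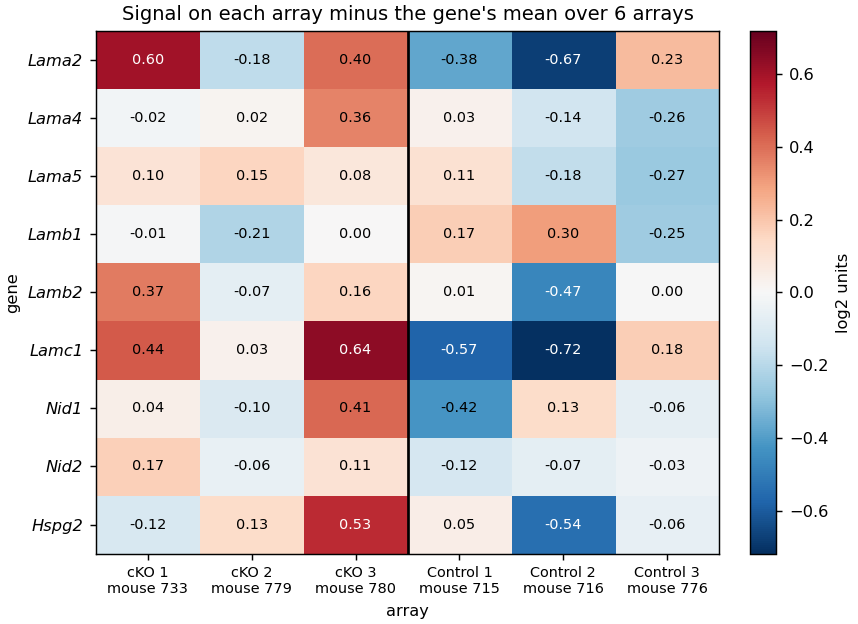
Signal of each basement membrane gene on each array after subtraction of its mean over 6 arrays, in log2 units, with cKO arrays left of the line and Control arrays right of it. Lama2 and Lamc1 show the same arrays high (cKO 1, cKO 3 and Control 3) and the same arrays low (Control 1 and 2), and Lamb1 is highest in Control 2.

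The genes most alike to 3 members were named by the same measure. For Lama2 they were Tmem19 (0.07), Tmem45b (0.09) and Nav3 (0.09). For Lama4 they were Hecw2, Dlc1 and Tmem184b, each at 0.06. For Hspg2 they were Eln (0.08), which encodes elastin, Plxnd1 (0.08) and Dock6 (0.11). Tmem19 was at 9.40, 8.67 and 9.27 in cKO 1 to 3, against 8.34, 8.15 and 8.91 in Control 1 to 3, and so had the same order of arrays as Lama2. Eln was at 7.01, 7.14 and 7.45 in cKO 1 to 3, against 6.98, 6.57 and 6.98 in Control 1 to 3. With 6 arrays and many genes, close matches are common, and all genes on an array share the overall signal level of that array.

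Since a shift of equal size in all features cancels within an array, partner genes were also compared as the difference of their log2 signals on the same array. A shift that varies with the signal level does not cancel. The absolute value of such a difference has no meaning across probes, and only its change between genotypes is read. Lamb1 minus Lamb2 was -3.63, -3.40 and -3.41 in cKO 1 to 3, against -3.09, -2.49 and -3.50 in Control 1 to 3, a change of -0.45. Nid1 minus Lamc1 was -1.89, -1.64 and -1.73 in cKO 1 to 3, against -1.35, -0.65 and -1.74 in Control 1 to 3, a change of -0.51. In both pairs the 2 low-numbered Control arrays were highest and Control 3 lay among the cKO arrays. Hspg2 minus Lamc1 changed by -0.38, Lama5 minus Lama2 by -0.33, Lama4 minus Lama2 by -0.31 and Nid2 minus Nid1 by -0.09. After quantile normalization the changes of the 6 pairs ran from -0.53 for Lamb1 minus Lamb2 to -0.14 for Nid2 minus Nid1. The groups overlapped in all 6 pairs, and the exact permutation tests, two-sided and with Benjamini-Hochberg adjustment over the 6 pairs, gave adjusted p-values of 0.6 for 5 pairs and 0.7 for Nid2 minus Nid1. All pairs but Nid2 minus Nid1 changed by more in the low numbers, from -0.84 to -1.09, and by 0.06 to 0.56 with the opposite sign in the high numbers.

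**Figure D4:**
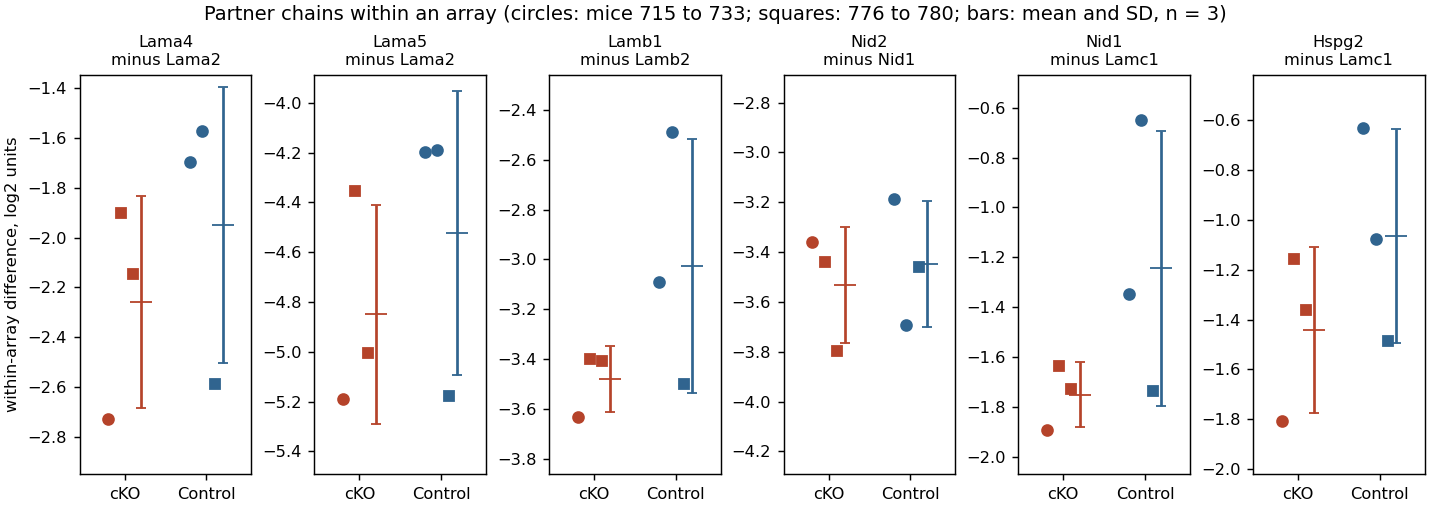
Difference between the log2 signals of 2 partner genes on the same array for 6 pairs, with cKO left of Control, circles for the low and squares for the high mouse numbers, and bars for the mean and SD of 3 arrays. In every pair the groups overlap, and in the pairs with Lama2, Lamb1 minus Lamb2 and Hspg2 minus Lamc1 the square of Control 3 lies below the cKO mean.

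Laminins are held at the fibre surface by dystroglycan and integrins, and of the 4 lists of related genes the receptors included the largest difference, that of Bcam. All 7 receptor genes measured had a positive difference, 6 after quantile normalization, with a median of 0.23 against 0.07 over all features. By limma 0 of 7 passed the adjusted test, and 3 had an unadjusted p under 0.05, all higher in cKO, against 3.7% of all features in that direction. Dag1, which encodes dystroglycan, was at 9.22, 9.42 and 9.58 in cKO 1 to 3, against 8.69, 8.47 and 9.13 in Control 1 to 3. All cKO arrays lay above all Control arrays, and the difference was 0.65 (SE 0.23, limma adjusted p = 0.999), with 0.65 among the low-numbered and 0.37 among the high-numbered mice. Itga7, the integrin alpha chain that binds laminin in muscle, differed by 0.69 (SE 0.27), with 1.05 among the low-numbered and 0.17 among the high-numbered mice, and its cKO 2 lay below Control 3 as in Lama2 and Lamc1. Bcam, a receptor for laminins with the alpha chain of Lama5, was at 9.25, 10.02 and 10.42 in cKO 1 to 3, against 8.83, 8.92 and 8.96 in Control 1 to 3. The Bcam difference was 0.99 (SE 0.31, limma adjusted p = 0.999) without overlap of the groups. It was 0.37 among the low-numbered and 1.26 among the high-numbered mice. The cKO arrays lay wholly above the Control arrays in 3 of 7 receptors, Dag1, Bcam and Itga3, against 8.95% of all features. Itgb1, the beta chain that pairs with Itga7, differed by 0.04 (SE 0.24). The count of receptors with an unadjusted limma p under 0.05, 3 as deposited, was 0 after centring on array medians. It was also 0 with quantile normalization and the number range in the model.

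Dystroglycan binds laminin only through a sugar chain added by a set of enzymes, of which 5 of 12 listed had a feature of their own. Of the 5, 4 had a positive difference, against 65.8% of all features, and 0 passed the adjusted test. An unadjusted limma p under 0.05 was reached by 2 of 5, both higher in cKO, against 3.7% of all features in that direction. Pomt1, a subunit of the enzyme that starts the chain, was at 6.03, 6.06 and 6.10 in cKO 1 to 3, against 5.69, 5.59 and 5.90 in Control 1 to 3, a difference of 0.33 (SE 0.14). Pomgnt2, which adds the next sugar, differed by 0.37 (SE 0.13), and both genes had all cKO arrays above all Control arrays, as did 8.95% of all features. Pomt2, the partner of Pomt1, differed by 0.22 (SE 0.15).

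Of 5 other laminin chains, Lama1, Lama3, Lamb3 and Lamc3 had a feature and 2 passed the filter, Lamb3 at 0.11 (SE 0.11) and Lama3 at 0.01 (SE 0.11), whose sign turned after quantile normalization. Of 20 genes for collagen IV and other basement membrane components all had a feature, and 17 passed the filter, with 8 positive and 9 negative differences and a median of -0.0031, while after quantile normalization 4 were positive. The main collagen IV chains Col4a1 and Col4a2 differed by 0.07 (SE 0.14) and 0.22 (SE 0.17), and Agrn, the organiser of the synapse, by 0.03 (SE 0.13). Sparc, a secreted protein that binds collagen IV, differed by 0.59 (SE 0.29) and was highest in cKO 1 and cKO 3. Fbln1, a fibulin of basement membranes, differed by 0.21 (SE 0.12). In Fbln1 and Col4a2 the cKO arrays lay wholly above the Control arrays, 2 of 17 genes against 8.95% of all features, and in 1 of 17, Ntn4, wholly below them, against 2.05%. Ntn4, a netrin that binds the laminin gamma chain and loosens laminin networks, was at 7.93, 7.98 and 7.87 in cKO 1 to 3, against 8.29, 9.23 and 8.39 in Control 1 to 3. All cKO arrays lay below all Control arrays, and the difference was -0.71 (SE 0.27, limma adjusted p = 0.999). It was the only gene of this list past an unadjusted limma threshold of 0.05, against 0.807% of all features on the lower side. The Ntn4 difference was -0.83 among the low-numbered and -0.47 among the high-numbered mice.

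**Figure D5:**
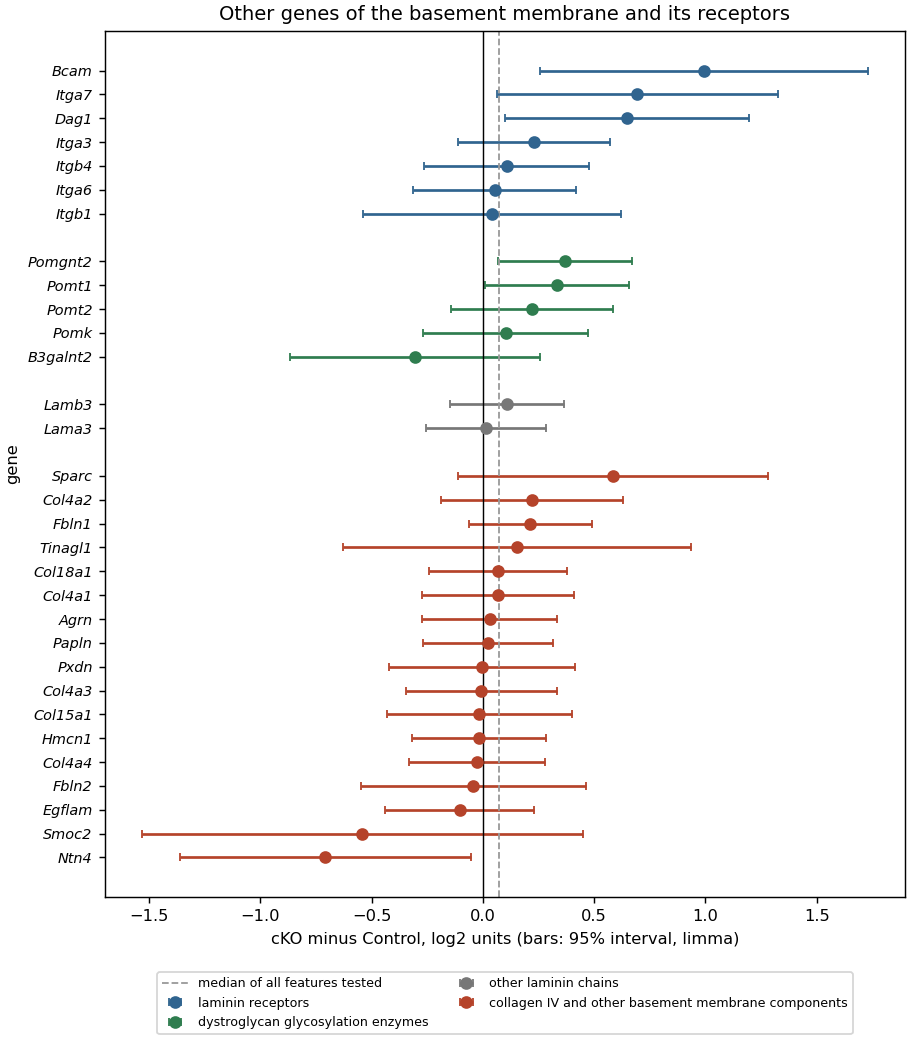
Difference between cKO and Control in log2 units, with 95% intervals from limma, for laminin receptors, dystroglycan glycosylation enzymes, other laminin chains and further basement membrane components that passed the filter. The dashed line is the median of all features tested, at 0.07, and the intervals of Bcam, Itga7, Dag1, Pomgnt2, Pomt1 and Ntn4 leave out 0.

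Several cell types make these proteins, and their markers differed between arrays beside them. The mean of the 9 basement membrane genes was 8.91, 8.70 and 9.04 in cKO 1 to 3, against 8.61, 8.48 and 8.68 in Control 1 to 3. The mean of the 8 tendon markers past the filter, of 9 listed, ran from 7.25 to 7.80 in cKO and from 5.94 to 6.84 in Control, with Chad at 1.97 (SE 0.36) and Angptl7 at 2.20 (SE 0.35). Of these tendon markers, 8 of 8 had a positive difference, against 65.8% of all features, and in 6 of 8 the cKO arrays lay wholly above the Control arrays, against 8.95%. After quantile normalization 7 of 8 were positive, against 49.2% of all features. The tendon mean differed by 1.29 among the low-numbered and 0.86 among the high-numbered mice. Fibroblast markers ran from 8.80 to 9.65 in cKO and from 8.79 to 9.61 in Control, with Col1a1 at 0.86 (SE 0.60) and Lum at -0.87 (SE 0.41), and 4 of 7 positive. Col1a1 differed by 1.31 among the low-numbered and -0.39 among the high-numbered mice, against 1.13 and -0.12 for Lama2. The fibroblast mean differed by 0.44 and -0.39 in the same ranges. Col1a2 and Col3a1 also took opposite signs in the ranges, whereas Dcn, Lum and Dpt were negative in both and Pi16 positive in both.

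For the vessel laminins, 10 endothelial markers had means of 8.85 to 9.04 in cKO and 8.65 to 9.71 in Control, with 2 of 10 positive differences and Emcn at -0.68 (SE 0.46) and Kdr at -0.52 (SE 0.40). Their mean differed by -0.42 among the low-numbered and 0.26 among the high-numbered mice. Smooth muscle and pericyte markers ran from 8.50 to 8.83 in cKO and from 8.26 to 8.60 in Control, with 7 of 8 positive, Acta2 at 0.67 (SE 0.32) and Rgs5 at -0.56 (SE 0.50). Schwann cell markers ran from 6.21 to 6.42 in cKO and from 6.11 to 6.44 in Control, with 3 of 5 positive, Pmp22 at 0.17 (SE 0.19) and Sox10 at 0.16 (SE 0.15). Adipocyte markers ran from 6.83 to 7.40 in cKO and from 6.70 to 6.87 in Control, with 4 of 5 positive, Cidec at 0.61 (SE 0.23) and Adipoq at 0.45 (SE 0.29). Macrophage markers ran from 5.72 to 6.48 in cKO and from 5.56 to 6.06 in Control, with 7 of 8 positive, Cd68 at 0.95 (SE 0.48) and Itgam at 0.38 (SE 0.18). Satellite cell markers ran from 5.22 to 5.45 in cKO and from 5.13 to 5.29 in Control, with Chodl at 0.34 (SE 0.24) and Myf5 at 0.31 (SE 0.16). Muscle fibre markers differed by 0.03 in their mean, with Casq2 at -0.32 (SE 0.19) and Tnni1 at 0.23 (SE 0.18). The positive counts of these lists stand against 65.8% of all features as deposited and 49.2% after quantile normalization. After that normalization they were 1 of 10 for endothelial, 6 of 8 for smooth muscle and pericyte and 2 of 5 for Schwann cell markers. For adipocyte markers the count was then 4 of 5, and for macrophage markers 7 of 8. Of these marker lists only that of tendon had array means in cKO wholly above those in Control. The mean of the 9 genes did so too, with a lowest cKO value of 8.70 and a highest Control value of 8.68. So did those of the laminin receptors (8.92 and 8.76) and of the dystroglycan glycosylation enzymes (6.403 and 6.395). The part of any marker list in the values of the 9 genes was not tested.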

How the data were processed

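RNA of the soleus of 3 cKO and 3 Control mice was measured on Affymetrix whole-transcript arrays, with 100 ng of total RNA labelled per array, per the labels' protocols. The value table was used as the authors deposited it, with 1 column per array. Its values were read as log2 signals from their range of 1.92 to 19.9, because the log base, background correction, summarisation and normalization behind the deposited values are not given in the sources used here. Of 72688 features, 65956 had values. Symbols came from the platform annotation, updated by Entrez identifier through RefSeq names on GRCm38.p6, and a symbol repeated for 1 feature counted once. A gene with several features was read from the one with the highest mean.

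A feature entered the test if it exceeded the array median on 3 or more arrays (33334 features, 18334 genes). All 9 members passed on all 6 arrays, the lowest value lying 1.24 log2 units above its array median. The test was the moderated linear model of limma 3.58.1 under R 4.3.3, with lmFit and a mean-variance trend in eBayes, two-sided, with Benjamini-Hochberg adjustment over all features. Plots were made with matplotlib 3.10.9 in Python 3.11.15. The number of arrays limits the precision. The limma p-values set a difference against the spread between arrays of a group, moderated over all features. With 1 array per mouse, that spread joins differences between mice and between arrays. In simulated data with the means and spreads of these features (33334 features), the fit recovered 18% of 100 2-fold and 76% of 100 4-fold changes. It also called 6 unchanged features. The simulated noise was independent between features and held no array-wide shift, unlike these arrays, so the percentages may not hold for them. Members and lists were chosen with earlier results of these data known. Named genes were the members, Mbtps1, Dag1, Itga7, Itgb1, Agrn, Col4a1 and Col4a2, the 3 smallest p-values of each pathway list, the 2 largest differences of each marker list, and the 3 genes most alike to Lama2, Lama4 and Hspg2. Listed genes without a feature of their own under that symbol were not analysed here. The alternatives were other normalizations, filters, variance models and weights, the replicate number or number range as a term, each array left out, and the mean of a gene's features.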

Additional observations from a re-analysis of the deposited data

How the results depend on the processing

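Over 17 alternatives each of the 9 members kept the sign of its difference, and 0 of 9 passed an adjusted limma p of 0.05. The filters, the variance models, the replicate block and the mean of a gene's features cannot change a member's difference. For these settings the sign was fixed in advance. Normalization, array weights, the number range as a term and each array left out could change the sign. The count of members with a positive difference stayed at 8, and their median ran from 0.15 to 0.35. The count of members past an unadjusted p of 0.05, 1 as deposited, was 0 after quantile normalization, after centring on array medians, with the filter at the 75th percentile, with the mouse number range as a term, and with quantile normalization and the range together. With 1 array left out it was 0 to 2, the count past an unadjusted p of 0.01 with a fold of 1.5 was 0 to 1, and the count whose groups did not overlap was 0 to 4. Nid2 minus Nid1 took the opposite sign without Control 1 (0.045) and without cKO 3 (0.0468), in a range from -0.21 to 0.0468 over the arrays left out.

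Other laminin chains had a median difference of -0.0097 after quantile normalization, 0.0019 after centring and -0.0512 with quantile normalization and the range, and none of them passed the filter at the 75th percentile. Enzymes of dystroglycan glycosylation had a median of 0.11 after quantile normalization and 0.13 with the range added. Their count past an unadjusted p of 0.05, 2 as deposited, was 1 after quantile normalization, centring, no filter, the stricter filter, the replicate block, the range term, and both quantile normalization and the range, and 0 to 1 with 1 array left out. Laminin receptors had a median of 0.65 with the stricter filter, which removes dimmer genes, and 0.11 with array weights, and with 1 array left out it was 0.11 to 0.29. Their count, 3 as deposited, was 0 after centring and with quantile normalization and the range, and 1 to 3 with 1 array left out. Collagen IV and other components had a median of -0.13 with array weights, and their count, 1 as deposited, was 2 with array weights, 0 with the range term, and 0 to 1 with 1 array left out. The features past an unadjusted p of 0.05, 1501 as deposited, numbered 4256 with array weights and 963 to 3142 with 1 array left out, and 0 to 14 passed the adjusted threshold. The cause of these changes was not tested.

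Over the features tested, cKO and Control arrays of the same replicate number deviated from their group means with correlations of 0.13, -0.20 and 0.21. By mouse number, cKO 1 had 0.13 and 0.33 with Control 1 and 2, all low. With Control 3, high as they are, cKO 2 and cKO 3 had 0.39 and 0.21. Across the ranges the correlations ran from -0.41 to 0.08. Deviations within a group of 3 sum to 0, so these values depend on one another. They do not decide whether the replicate numbers pair the mice. With the replicate number as a block the Lamc1 difference was 0.74 with a limma adjusted p of 0.995, and 1 member passed an unadjusted p of 0.05.

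With 3 mice a group, most 2-fold changes in the simulated data did not pass the adjusted threshold. The log base and normalization of the deposited values were not stated in the sources used here. Within each mouse number range 1 array of a genotype faces 2 of the other, so those values have no test.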
